A study of Mus musculus with 12 samples.

Results

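The heat shock chaperones described here are the 10 genes Hspa1a, Hspa1b, Hsph1, Dnajb1, Hspd1, Hspe1, Hspa8, Hsp90aa1, Hsp90ab1 and Hsf1, followed in resting B (RB) cells of mouse spleen. The members were found as array spots whose gene name equals 1 of these symbols, and 9 of the 10 had a probe, out of 50090 gene names and 61307 probes on the array. No spot carried the name Hspa1b. The 9 genes had 17 probes, and each gene is given by its brightest probe that was saturated on none of the 12 arrays. Only Hsp90aa1 had no such probe, so fold changes are given for 8 members.

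RB cells of female BALB/c mice aged 6 weeks were cultured for 4 h in 6 conditions with 2 arrays each: without a stimulus, with Pam2CSK4 (spelled Pam2csk4 in the labels, a synthetic lipopeptide ligand of TLR-2), with anti-CD86, with anti-CD86 and Pam2CSK4, with anti-CD40, and with anti-CD40 and Pam2CSK4. Per the methods, RB cells were spleen cells left after removal of CD43-positive cells, and the anti-CD86 antibody was biotinylated and cross-linked with streptavidin. Neither the cross-linking reagent nor an isotype control alone was among the conditions, and the unstimulated cells were the only control. The paper's figure legends call the arrays of a condition 2 biological replicates. Neither the legends nor the labels say whether these came from separate cultures or animals. The p-values therefore measure the spread between these arrays only. The question is whether a signal through CD86 or CD40, alone or with TLR-2, changes the transcripts of the chaperone machinery.

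Heat shock proteins are chaperones that keep other proteins folded. Hspa8 is the constitutive and Hspa1a and Hspa1b the stress-inducible cytosolic HSP70. Dnajb1 is an HSP40 J-domain protein that hands clients to HSP70 and speeds its ATP hydrolysis, and Hsph1 is an HSP110 protein that serves HSP70 as nucleotide exchange factor. Hsp90aa1 and Hsp90ab1 are the inducible and the constitutive cytosolic HSP90, which hold kinases and steroid receptors in a form ready to act. Hspd1 (HSP60) forms the folding chamber of the mitochondrial matrix and Hspe1 (HSP10) its lid. Hsf1 is the transcription factor that binds inverted repeats of the bases GAA, the heat shock elements, and is held inactive by chaperones until misfolded protein accumulates. HSF1 itself is controlled mainly as a protein, by trimerization and modification, which a transcript level does not show.

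The promoter sequences are shown because these genes are textbook targets of HSF1. The letters let the reader see which of the members with a sequence hold an exact match to the motifs searched. RefSeq promoter sequences on GRCm38.p6, which run from 250 bases before to 50 bases after a transcript start, were at hand for 6 of the 10 members, with 9 starts in all. They were Hspa1a, Hspa1b, Hsph1, Dnajb1, Hspd1 and Hspe1. Capitals mark the motifs GAANNTTC and TTCNNGAA, each of which reads the same on both strands, and where matches overlap the capitals form 1 run.
Hspa1a, chr17:34972157-34972306, minus strand: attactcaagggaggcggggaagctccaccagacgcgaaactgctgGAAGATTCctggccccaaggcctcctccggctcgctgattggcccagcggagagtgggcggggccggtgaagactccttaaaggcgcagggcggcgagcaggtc
Hspa1b, chr17:34959239-34959388, minus strand: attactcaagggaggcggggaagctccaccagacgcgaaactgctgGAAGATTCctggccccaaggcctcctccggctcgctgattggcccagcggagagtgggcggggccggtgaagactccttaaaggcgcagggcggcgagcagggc
Hsph1, chr5:149636337-149636396, minus strand: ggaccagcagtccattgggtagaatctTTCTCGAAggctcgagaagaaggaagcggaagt
Hspe1 and Hspd1, chr1:55088054-55088083, plus strand of Hspe1: gtccgTTCTAGAACCTTCCGGAAggccccg
The windows of Hspa1a and Hspa1b differed at 1 of 150 bases, and their whole promoter sequences at 4 of 300. Each held 1 GAANNTTC, starting 104 bases before the transcript start. The run in front of Hspe1 is the longest, an 18-base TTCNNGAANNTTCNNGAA that starts 89 bases before the Hspe1 start. Hspe1 and Hspd1 lie on opposite strands, and 2 Hspd1 starts are annotated. The run lies between the Hspe1 start and 1 of these, with 215 bases between those starts. The other Hspd1 start lies past the Hspe1 start, and its promoter sequence matched neither 8-base motif. Of 32851 mouse promoter sequences, 5 held this 18-base motif, which is 0.0152%. They were those of Hspd1, Hspe1, Arpc2, Fam149a and Chordc1, the last of them an HSP90 cochaperone. Either 8-base motif was in 15.1% of all promoter sequences, GAANNTTC in 7.86% and TTCNNGAA in 8.52%. In the Hsph1 promoter sequence a 13-base TTCNNGAANNTTC begins 37 bases after the transcript start, outside the printed window. This motif or its reverse complement was in 0.603% of all promoter sequences. Neither Dnajb1 promoter sequence matched either motif. No mismatch was allowed, so an imperfect repeat would not have been found. A match is a run of letters, and no binding was measured.

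All 17 member probes were well above background on all 12 arrays. The 12 arrays lay on 2 slides. Slide 1 held 8 arrays, both of the unstimulated cells, both of anti-CD40 and Pam2CSK4, and replicate 1 of the other 4 conditions. Slide 2 held replicate 2 of those 4. All 17 member probes were lower on slide 2, by -0.41 to -0.07 on the log2 scale with a median of -0.31, and for 14 of them the slide difference passed the test. Over all probes tested the median slide difference was -0.13, and 57.2% of probes differed between slides. The spread within a condition carried the slide with it. For the reported probes the SD ran from 0.0018 to 0.068 in the 2 conditions that lay on slide 1 alone and from 0.026 to 0.318 in the 4 that lay on both. Each change is therefore given from limma without a slide term and with the slide as a block. Because slide 2 holds no unstimulated array, the block rests on the slide difference within the 4 split conditions being the same for all.

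As a check of the labelled cell type, 5 of 5 B cell markers (Cd79a, Cd79b, Ms4a1, Cd22 and Pax5) were well above background in every condition. The log2 of their summed signal ran from 8.08 to 8.74 over the 12 arrays, where 0 is the 75th percentile of an array. Markers of other cells were present at lower summed signals, between 3.16 and 3.80 for 5 T cell genes, 2.81 and 3.92 for 5 myeloid genes, 1.62 and 2.25 for 3 NK cell genes, and 5.87 and 6.73 for 3 red cell genes. In such bulk RNA, fewer cells of a type and less RNA per cell cannot be told apart.

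Without the slide term, 0 of the 8 members passed an adjusted p of 0.05 against unstimulated cells in any of the 5 stimulations by limma. The share of all 31596 probes that passed was 0.136% with Pam2CSK4, 2.14% with anti-CD86, 10.6% with anti-CD86 and Pam2CSK4, 16.7% with anti-CD40 and 18.2% with anti-CD40 and Pam2CSK4. At an unadjusted p under 0.05 the members numbered 0, 3, 3, 2 and 0 in the same order, against 15.7%, 23.2%, 30.4%, 33.7% and 33.9% of all probes. The one way test over the 6 conditions that the methods name called 1 member, Hspe1, after adjustment and 3 before it, where 18.2% and 35.3% of all probes passed. The moderated F test called 0 members, where 20.1% of all probes passed.

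With the slide as a block, Hsp90ab1 and Hspd1 rose with anti-CD40, Hsp90ab1 rose with anti-CD40 and Pam2CSK4, and all other called changes against unstimulated cells were falls. The calls numbered 0 of 8 members with Pam2CSK4 (10.8% of all probes), 2 with anti-CD86 (28.3%), 4 with anti-CD86 and Pam2CSK4 (34.9%), 6 with anti-CD40 (37.1%) and 3 with anti-CD40 and Pam2CSK4 (47.4%). With Pam2CSK4, 2 members had an unadjusted p under 0.05, against 29.8% of all probes. By direction, 0 members rose and 2 fell with anti-CD86, where 12.9% of all probes rose and 15.5% fell. In the combination of anti-CD86 and Pam2CSK4 0 rose and 4 fell, against 14.5% and 20.4% of all probes. With anti-CD40 2 rose and 4 fell, against 15.7% and 21.4%, and with anti-CD40 and Pam2CSK4 1 rose and 2 fell, against 23.7% in each direction. The median change of the 8 members was -0.11, -0.18, -0.17 and 0.03 in the last 4 of these, where that of all probes lay between -0.05 and 0.01. These are 5 comparisons against the same 2 unstimulated arrays. Of the 15 called changes, all had the same sign without the block and in the 8 arrays of slide 1 alone, and 4 were also called in slide 1 alone. These fits reuse the arrays that gave the calls, and the unstimulated cells lie on slide 1 only. The shared sign is therefore no independent check. For the 3 calls with anti-CD40 and Pam2CSK4 all arrays lie on slide 1, and the estimates are the same in each fit. Scaling each array by its median intensity in place of its 75th percentile shifted all changes of a comparison by 1 constant. Without the block the median change of all probes became -0.26, -0.19, -0.32, -0.58 and -0.10, in the order of stimulations above. With the 75th percentile and no block these medians were -0.07, -0.05, -0.03, -0.01 and 0.01. With that scaling and the block 0 of the 15 passed by limma, the lowest adjusted p being 0.0894, and Hspd1 with anti-CD40 turned to -0.11.

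**Figure D1:**
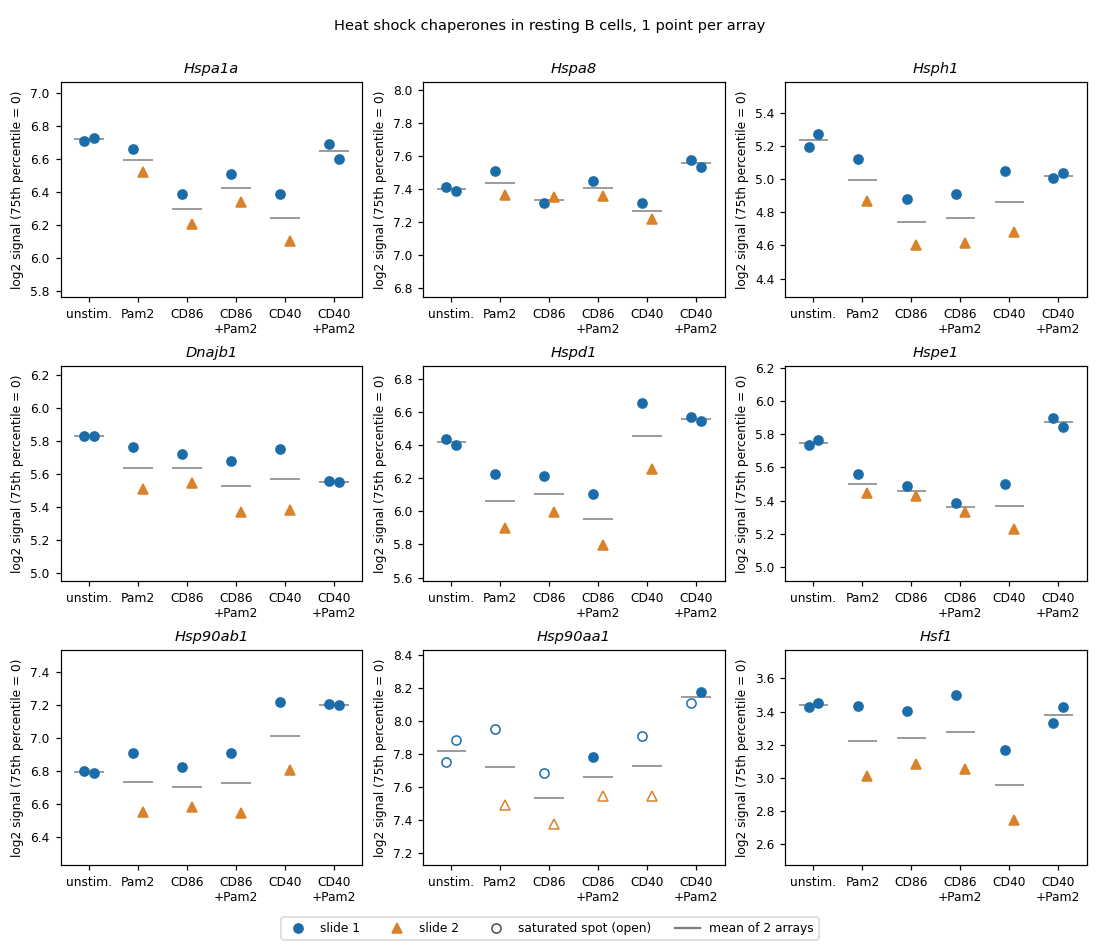
Log2 signal of the reported probe of 9 heat shock chaperones on each of the 12 arrays, relative to the array's 75th percentile, by condition. Circles are arrays of slide 1, triangles of slide 2, open symbols saturated spots, and grey lines the mean of 2 arrays. Every panel spans 1.3 log2 units, and in the 4 conditions that lie on both slides the slide 2 array is the lower one, save for Hspa8 with anti-CD86.

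**Figure D2:**
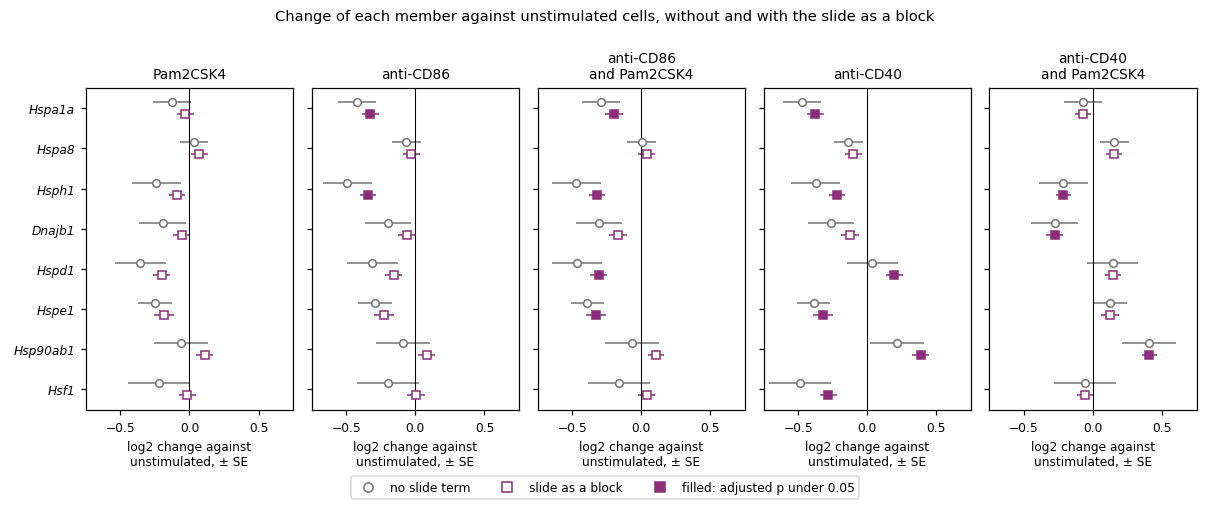
Log2 change of 8 members against unstimulated cells in each of the 5 stimulations, with bars of 1 SE. Grey circles come from the fit with no slide term and purple squares from the fit with the slide as a block, and filled symbols passed an adjusted p of 0.05. Filled squares number 0, 2, 4, 6 and 3 from left to right, and only Hsp90ab1 and Hspd1 have one to the right of 0.

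The reported probe of Hsp90ab1, the constitutive cytosolic HSP90, rose in both stimulations with anti-CD40 when the slide was a block. It was called in none of the other 3, where a second probe, given below, differed. Its log2 signal was 6.80 and 6.79 in unstimulated cells, 6.91 and 6.55 with Pam2CSK4, 6.82 and 6.58 with anti-CD86, 6.91 and 6.55 with anti-CD86 and Pam2CSK4, 7.21 and 6.80 with anti-CD40, and 7.20 and 7.20 with anti-CD40 and Pam2CSK4. Both arrays of anti-CD40 lay above both unstimulated arrays, the slide 2 array only just, and both of anti-CD40 and Pam2CSK4 lay well above. Without the slide term the changes were 0.22 ± 0.20 (SE, adjusted p = 0.467) with anti-CD40, which median scaling turned to -0.35, and 0.41 ± 0.20 (SE, adjusted p = 0.186) with anti-CD40 and Pam2CSK4. With the block they were 0.39 ± 0.06 (SE, adjusted p = 0.00347) and 0.41 ± 0.06 (SE, adjusted p = 0.00158), and in slide 1 alone 0.42 (adjusted p = 0.0312) and 0.41 (adjusted p = 0.0133). Both calls held when each array of the compared conditions was left out in turn, with adjusted p from 0.00807 to 0.0302 and from 0.0115 to 0.0135. In the other 3 stimulations the blocked change was 0.11, 0.08 and 0.11, with adjusted p of 0.275, 0.365 and 0.221. Set against each other, anti-CD40 and Pam2CSK4 exceeded anti-CD86 and Pam2CSK4 by 0.30 ± 0.06 (SE, adjusted p = 0.00993) with the block and by 0.47 ± 0.20 (SE, adjusted p = 0.151) without it. The blocked call was lost without replicate 1 of anti-CD86 and Pam2CSK4 (adjusted p = 0.0675). The summed signal of the B cell markers was also highest with anti-CD40 and Pam2CSK4 (8.55 to 8.74 on the log2 scale, against 8.19 to 8.33 in unstimulated cells), and its part in the Hsp90ab1 result was not tested. Of the 4 B cell markers tested, 1 rose and 0 fell against unstimulated cells with the block, at a median of 0.00, and against anti-CD86 and Pam2CSK4 1 was higher and 3 were lower, at a median of -0.55.

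A second Hsp90ab1 probe, P257204, showed a larger rise with both anti-CD40 stimulations and passed the test there without a slide term for anti-CD40 and Pam2CSK4. Its sequence is shown because this probe lists a single accession, while the reported one also lists a predicted transcript.
Hsp90ab1 P257204: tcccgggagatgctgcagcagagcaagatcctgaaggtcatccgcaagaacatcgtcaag
The log2 signal of P257204 was 3.10 and 3.25 in unstimulated cells, 3.33 and 3.001 with Pam2CSK4, 3.52 and 3.25 with anti-CD86, 3.82 and 3.28 with anti-CD86 and Pam2CSK4, 3.82 and 3.35 with anti-CD40, and 4.01 and 3.99 with anti-CD40 and Pam2CSK4. It changed by 0.82 ± 0.23 (SE, adjusted p = 0.0423) with anti-CD40 and Pam2CSK4 without the slide term, and by 0.61 ± 0.09 (SE, adjusted p = 0.0029) with anti-CD40 and 0.58 ± 0.09 (SE, adjusted p = 0.00452) with anti-CD86 and Pam2CSK4 with the block. With anti-CD86 alone it rose by 0.41 ± 0.09 (SE, adjusted p = 0.0178) with the block. These last 2 were calls that the reported probe did not make.

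Hsp90aa1, the inducible HSP90, had a single probe, and its spot was saturated on 10 of the 12 arrays. The 2 unsaturated spots were replicate 1 of anti-CD86 and Pam2CSK4, at 7.78, and replicate 2 of anti-CD40 and Pam2CSK4, at 8.18 on the log2 scale. The saturated spots stood between 7.38 and 8.11, which are lower bounds. As 4 of the 6 conditions, the unstimulated cells included, were saturated on both arrays, no fold is given.

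Hspd1 and Hspe1, the chamber and the lid of the mitochondrial chaperonin, both fell with anti-CD86 and Pam2CSK4 and moved in opposite directions with anti-CD40, when the slide was a block. The log2 signal of Hspd1 was 6.44 and 6.40 in unstimulated cells, 6.22 and 5.90 with Pam2CSK4, 6.22 and 5.996 with anti-CD86, 6.11 and 5.80 with anti-CD86 and Pam2CSK4, 6.66 and 6.25 with anti-CD40, and 6.57 and 6.55 with anti-CD40 and Pam2CSK4. That of Hspe1 was 5.74 and 5.76 in unstimulated cells, 5.56 and 5.44 with Pam2CSK4, 5.49 and 5.43 with anti-CD86, 5.39 and 5.33 with anti-CD86 and Pam2CSK4, 5.50 and 5.23 with anti-CD40, and 5.90 and 5.84 with anti-CD40 and Pam2CSK4. With anti-CD86 and Pam2CSK4 every array of either gene lay below both unstimulated arrays. The change was -0.46 ± 0.18 (SE, adjusted p = 0.134) for Hspd1 and -0.39 ± 0.12 (SE, adjusted p = 0.0731) for Hspe1 without the slide term, and -0.31 ± 0.06 (SE, adjusted p = 0.0105) and -0.33 ± 0.07 (SE, adjusted p = 0.0145) with the block. In slide 1 alone it was -0.31 (adjusted p = 0.0535) and -0.36 (adjusted p = 0.0465). The blocked call was lost for Hspd1 without replicate 1 of anti-CD86 and Pam2CSK4 (adjusted p = 0.0866) or of the unstimulated cells (0.0582), and for Hspe1 without either of these (0.138 and 0.0567) or without unstimulated replicate 2 (0.0708).

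With anti-CD40 alone, the blocked changes were -0.32 ± 0.07 (SE, adjusted p = 0.0139) for Hspe1 and 0.19 ± 0.06 (SE, adjusted p = 0.048) for Hspd1, and without the slide term they were -0.39 ± 0.12 (SE, adjusted p = 0.0624) and 0.04 ± 0.18 (SE, adjusted p = 0.913). The Hspe1 call was lost without either unstimulated replicate (adjusted p = 0.0533 and 0.068), and the Hspd1 call without anti-CD40 replicate 1 (0.291) or either unstimulated replicate (0.114 and 0.177). The difference can be read on each array, where the part of the slide shift that both genes share drops out. Relative to its mean in unstimulated cells, the log2 ratio of Hspd1 to Hspe1 was 0.49 and 0.36 on the anti-CD40 arrays. On the other slide 1 arrays it lay between -0.03 and 0.06, and on the other slide 2 arrays between -0.21 and -0.10. The anti-CD40 array was thus the highest on its slide on both slides, for a ratio that was picked after its values were seen and is given without a test. With anti-CD40 and Pam2CSK4 the ratio was 0.00 and 0.03. These ratios use the reported Hspd1 probe. For a second Hspd1 probe, P1172972, the log2 ratio to the reported probe was taken in the same way. It was 0.25 and 0.36 with anti-CD40, and -0.75 and -0.69 with anti-CD40 and Pam2CSK4. By that probe the ratio to Hspe1 thus lay below the unstimulated level in the combination.

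**Figure D3:**
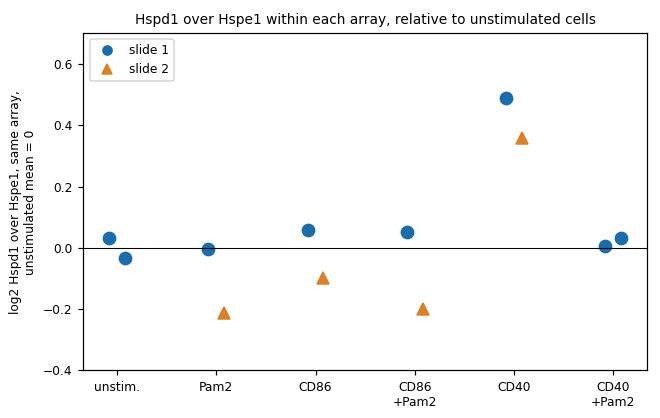
Log2 ratio of the signal of the reported Hspd1 probe to the Hspe1 signal on each array, by condition. The mean of the 2 unstimulated arrays is set to 0, and the second Hspd1 probe is not shown. Circles are slide 1 and triangles slide 2, and the 2 anti-CD40 arrays, at 0.49 and 0.36, stand above all others.

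With the block, the reported probes of both genes were higher with anti-CD40 and Pam2CSK4 than with anti-CD86 and Pam2CSK4, and a second Hspd1 probe was lower. For Hspe1 this difference, 0.51 ± 0.12 (SE, adjusted p = 0.0298), was the only change of a reported probe called without the slide term in any of the 12 comparisons, against 12.2% of all probes. With the block it was 0.45 ± 0.07 (SE, adjusted p = 0.00432), where 3 of 8 members and 34.5% of all probes passed. The call without the block was lost when any 1 of the 4 arrays was left out, with adjusted p from 0.0771 to 0.168, and the blocked call without replicate 1 of anti-CD86 and Pam2CSK4 (0.0576). For Hspd1 the difference was 0.61 ± 0.18 (SE, adjusted p = 0.0715) without the block and 0.45 ± 0.06 (SE, adjusted p = 0.00235) with it, and the blocked call held with each array left out in turn (adjusted p from 0.0126 to 0.0317) and in slide 1 alone, at 0.45 (adjusted p = 0.0309). All arrays of anti-CD40 and Pam2CSK4 lay above those of anti-CD86 and Pam2CSK4 for both reported probes. The second Hspd1 probe, P1172972, went the other way, at -0.18 ± 0.13 (SE, adjusted p = 0.396) without the block and -0.27 ± 0.07 (SE, adjusted p = 0.0207) with it, and both of its anti-CD40 and Pam2CSK4 arrays lay below both of anti-CD86 and Pam2CSK4. No direction common to the probes of Hspd1 can be given for this difference. The run of letters between these 2 genes is printed above, and whether it bears on their levels was not tested. Against anti-CD40 alone, Hspe1 was higher with anti-CD40 and Pam2CSK4 by 0.44 ± 0.07 (SE, adjusted p = 0.0114) with the block, a call lost without replicate 1 of the combination (0.0575).

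The response of Hspe1 to anti-CD40 and Pam2CSK4 exceeded the sum of its single responses, and Hspe1 was the 1 member for which that difference was called with the block. It was 0.76 ± 0.17 (SE, adjusted p = 0.0949) on the log2 scale without the slide term and 0.63 ± 0.11 (SE, adjusted p = 0.0229) with the block, where 1.15% and 8.41% of all probes passed. The blocked call was lost without any 1 array of Pam2CSK4, of anti-CD40 and Pam2CSK4, or of the unstimulated cells, with adjusted p up to 0.13. For anti-CD86 and Pam2CSK4, limma called 0 of 8 members without or with the block (0.019% and 0.234% of all probes). At an unadjusted p under 0.05 the members numbered 0 and 0, against 4.29% and 16.2% of all probes. Against Pam2CSK4 alone, anti-CD40 and Pam2CSK4 raised Hspd1 by 0.34 ± 0.06 (SE, adjusted p = 0.0079), Hspe1 by 0.31 ± 0.07 (SE, adjusted p = 0.0201) and Hsp90ab1 by 0.30 ± 0.06 (SE, adjusted p = 0.0116) with the block and Dnajb1 changed by -0.22 ± 0.06 (SE, adjusted p = 0.039) (31.4% of all probes passed), and no member passed without it (9.91%). The second Hspd1 probe had the opposite sign here too, at -0.28 ± 0.07 (SE, adjusted p = 0.0212) with the block. The Dnajb1 call was lost without any of the 4 arrays. Each of the other 3 calls was lost without Pam2CSK4 replicate 1, at adjusted p of 0.07, 0.14 and 0.0872, that of Hspe1 also without any of the other 3 arrays, and that of Hsp90ab1 also without Pam2CSK4 replicate 2 (0.0519) or anti-CD40 and Pam2CSK4 replicate 2 (0.0509). Anti-CD86 added to Pam2CSK4 called 1 member, Hsph1, at -0.23 ± 0.05 (SE, adjusted p = 0.0468) (10.7% of all probes), a call lost without any of its 4 arrays and not made without the block (0.0633%). Pam2CSK4 added to anti-CD86 called 0 members in either fit (0.225% and 7.55% of all probes). At an unadjusted p under 0.05 there were 0 and 1, against 8.81% and 26.6% of all probes.

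The 2 Hspd1 probes also differed in sign for the combination with anti-CD40 against unstimulated cells. The second probe, P1172972, is shown because it gave 2 of the calls made without a slide term.
Hspd1 P1172972: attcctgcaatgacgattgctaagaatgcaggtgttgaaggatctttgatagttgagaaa
Its log2 signal was 2.40 and 2.33 in unstimulated cells, 2.02 and 1.92 with Pam2CSK4, 2.39 and 2.26 with anti-CD86, 2.06 and 1.88 with anti-CD86 and Pam2CSK4, 2.85 and 2.56 with anti-CD40, and 1.77 and 1.80 with anti-CD40 and Pam2CSK4. With anti-CD40 and Pam2CSK4 it fell by 0.58 ± 0.13 (SE, adjusted p = 0.0194) against unstimulated cells and decreased by 0.92 ± 0.13 (SE, adjusted p = 0.0107) against anti-CD40 alone, without the slide term. Its F test over the 6 conditions passed as well (adjusted p = 0.0135). The reported probe gave 0.14 ± 0.18 (SE, adjusted p = 0.663) against unstimulated cells. P1172972 also fell with Pam2CSK4 alone with the block, by 0.31 ± 0.07 (SE, adjusted p = 0.0365), a call that the reported probe did not make (-0.20 ± 0.06 (SE, adjusted p = 0.0875)). With the block both probes rose with anti-CD40 alone (0.43 for P1172972) and both fell with anti-CD86 and Pam2CSK4 (-0.31). Both probes list, besides the Hspd1 transcript, accessions of predicted transcripts, so either signal could hold RNA of another locus.

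Hspa1a, the inducible HSP70, was lower with anti-CD40 and with anti-CD86 when the slide was a block, and was close to the unstimulated level with anti-CD40 and Pam2CSK4. Its log2 signal was 6.71 and 6.72 in unstimulated cells, 6.66 and 6.52 with Pam2CSK4, 6.39 and 6.21 with anti-CD86, 6.51 and 6.34 with anti-CD86 and Pam2CSK4, 6.39 and 6.10 with anti-CD40, and 6.69 and 6.60 with anti-CD40 and Pam2CSK4. All arrays of anti-CD86, of anti-CD86 and Pam2CSK4 and of anti-CD40 lay below both unstimulated arrays. Without the slide term the changes were -0.42 ± 0.14 (SE, adjusted p = 0.124) with anti-CD86 and -0.47 ± 0.14 (SE, adjusted p = 0.0507) with anti-CD40. With the block they were -0.32 ± 0.06 (SE, adjusted p = 0.0116) and -0.38 ± 0.06 (SE, adjusted p = 0.00445), with -0.20 ± 0.06 (SE, adjusted p = 0.0492) for anti-CD86 and Pam2CSK4. The anti-CD40 call held with each array left out in turn (adjusted p from 0.0124 to 0.0294). That of anti-CD86 was lost without its replicate 1 or either unstimulated array (up to 0.0757), and that of the combination without any of its 4 arrays. Pam2CSK4 added to anti-CD40 raised Hspa1a again by 0.30 ± 0.06 (SE, adjusted p = 0.0239) with the block (15% of all probes passed, against 2.9% without it, where no member was called), a call lost without either array of the combination or anti-CD40 replicate 2 (up to 0.0898). The summed myeloid markers were lower with anti-CD86 and with anti-CD40 and higher with Pam2CSK4. With the block 0 of the 5 genes rose and 2 fell with anti-CD86, at a median of -0.25. With anti-CD40 0 rose and 1 fell (-0.23), with anti-CD40 and Pam2CSK4 0 and 2 (-0.12). With Pam2CSK4 1 rose and 1 fell (0.01), with anti-CD86 and Pam2CSK4 1 and 2 (-0.14). All 5 of 5 markers were above background in every condition. Their log2 sum was 3.55 to 3.56 in unstimulated cells, 3.67 to 3.92 with Pam2CSK4 and 2.97 to 3.24 with anti-CD86. It was 3.30 to 3.67 with anti-CD86 and Pam2CSK4, 2.81 to 3.18 with anti-CD40 and 3.49 to 3.50 with anti-CD40 and Pam2CSK4. The T cell sum was 3.77 to 3.80 in unstimulated cells and at most 3.71 with a stimulation. The NK cell sum was 2.24 to 2.25 in unstimulated cells and at most 2.21 with a stimulation. With the block 0 of the 5 T cell genes rose or fell with Pam2CSK4, and 0 rose and 1 fell with anti-CD86 and with anti-CD40. The part of any of these markers in the Hspa1a result was not tested.

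The 4 Hspa1a probes fell into pairs. The reported probe and P117952 share 30 of their 60 bases and list the Hspa1a transcript alone. The other 2, printed here, list the transcripts of both Hspa1a and Hspa1b, so that their signal cannot be split between these 2 genes.
Hspa1a P52803: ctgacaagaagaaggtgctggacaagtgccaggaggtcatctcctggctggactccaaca
Hspa1a P304902: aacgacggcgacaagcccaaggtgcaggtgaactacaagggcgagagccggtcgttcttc
P117952 was also lower with anti-CD40, by -0.34 ± 0.06 (SE, adjusted p = 0.00516) with the block. P52803 instead rose, by 0.39 ± 0.06 (SE, adjusted p = 0.00513) with anti-CD86 and Pam2CSK4 and by 0.40 ± 0.06 (SE, adjusted p = 0.00217) with anti-CD40 and Pam2CSK4 with the block, against 0.22 ± 0.20 (SE, adjusted p = 0.479) and 0.40 ± 0.20 (SE, adjusted p = 0.194) without it. P304902 changed by 0.08 ± 0.05 (SE, adjusted p = 0.31) and 0.01 ± 0.05 (SE, adjusted p = 0.846) in these 2 with the block. With anti-CD86 alone P52803 changed by 0.16 ± 0.06 (SE, adjusted p = 0.118) with the block, against the fall of the reported probe. With Pam2CSK4 alone the mean log2 signal of P52803 was 3.89, against 3.81 in unstimulated cells. That of the reported probe was 6.59, against 6.72. For Pam2CSK4, for anti-CD86 and for the 2 combinations no direction common to the 4 probes can be given.

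**Figure D4:**
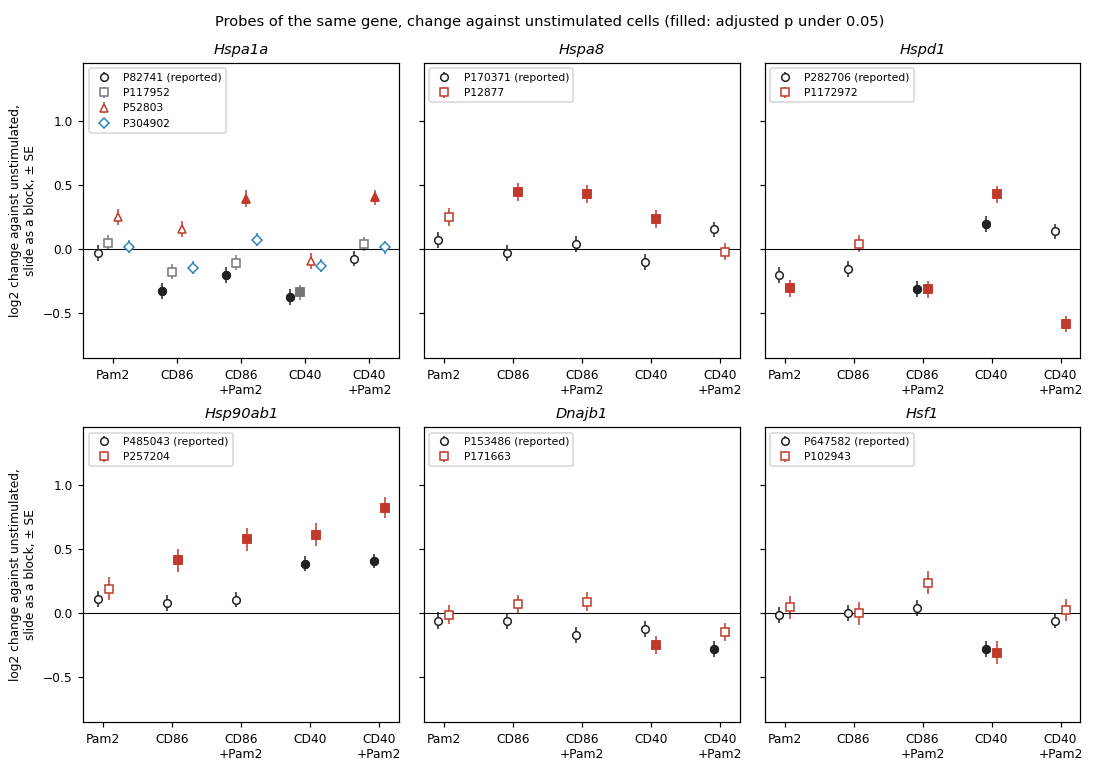
Log2 change against unstimulated cells, with the slide as a block and bars of 1 SE, for each probe of the 6 genes with more than 1 probe, by stimulation. Black circles are the reported probes, other symbols the other probes, and filled symbols passed an adjusted p of 0.05. For every gene shown but Hsp90ab1, probes lie on opposite sides of 0 in some stimulations. Among these are Hspd1 with anti-CD40 and Pam2CSK4, Hspa8 with anti-CD86, and Hspa1a with anti-CD86 and in the combinations.

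Hspa8, the constitutive HSP70, had the narrowest range of the 8 members. Its log2 signal was 7.41 and 7.39 in unstimulated cells, 7.51 and 7.36 with Pam2CSK4, 7.32 and 7.35 with anti-CD86, 7.45 and 7.36 with anti-CD86 and Pam2CSK4, 7.31 and 7.22 with anti-CD40, and 7.58 and 7.54 with anti-CD40 and Pam2CSK4. The condition means spanned 0.29 on the log2 scale, against 0.61 for Hspd1, the widest. It was the only 1 of the 8 whose F test did not pass with the block (adjusted p = 0.0747), where 59.9% of all probes passed. Its change against unstimulated cells ran from -0.10 with anti-CD40 to 0.15 with anti-CD40 and Pam2CSK4, and the difference between these, 0.25 ± 0.06 (SE, adjusted p = 0.0416), passed with the block and was lost without any of the 4 arrays. With the block, the second probe moved more with anti-CD86, with anti-CD86 and Pam2CSK4 and with anti-CD40. Its condition means ran from 4.96 to 5.26, a span close to that of the reported probe.
Hspa8 P170371, reported: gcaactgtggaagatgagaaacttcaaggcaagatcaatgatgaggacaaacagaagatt
Hspa8 P12877: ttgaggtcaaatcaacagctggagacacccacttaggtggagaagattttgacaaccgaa
P12877 rose by 0.45 ± 0.07 (SE, adjusted p = 0.00646) with anti-CD86 and by 0.43 ± 0.07 (SE, adjusted p = 0.00538) with anti-CD86 and Pam2CSK4 with the block, where the reported probe gave -0.03 and 0.04. With anti-CD40 it rose by 0.23 ± 0.07 (SE, adjusted p = 0.0416), where the reported probe gave -0.10 ± 0.06 (SE, adjusted p = 0.26). Without the block the P12877 values were 0.28 ± 0.20 (SE, adjusted p = 0.441) and 0.26 ± 0.20 (SE, adjusted p = 0.4).

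Hsph1, the HSP110 exchange factor of HSP70, was lower in all 4 stimulations that engaged CD86 or CD40 when the slide was a block. Its log2 signal was 5.20 and 5.27 in unstimulated cells, 5.12 and 4.87 with Pam2CSK4, 4.88 and 4.60 with anti-CD86, 4.91 and 4.62 with anti-CD86 and Pam2CSK4, 5.05 and 4.68 with anti-CD40, and 5.004 and 5.03 with anti-CD40 and Pam2CSK4. Every stimulated array lay below both unstimulated arrays. With the block the changes were -0.34 ± 0.06 (SE, adjusted p = 0.00793) with anti-CD86, -0.32 ± 0.06 (SE, adjusted p = 0.00741) with anti-CD86 and Pam2CSK4, -0.22 ± 0.06 (SE, adjusted p = 0.0245) with anti-CD40 and -0.22 ± 0.05 (SE, adjusted p = 0.0176) with anti-CD40 and Pam2CSK4. With Pam2CSK4 alone it was -0.09 ± 0.06 (SE, adjusted p = 0.353). Without the block the 4 ranged from -0.49 to -0.22 with adjusted p from 0.12 to 0.453. Each blocked call was lost when 1 array was left out, among them anti-CD86 replicate 1 (0.0578), anti-CD86 and Pam2CSK4 replicate 1 (0.0683), anti-CD40 replicate 2 (0.074) and, in all but anti-CD86 and Pam2CSK4, unstimulated replicate 2 (up to 0.125). That of anti-CD40 and Pam2CSK4 was also lost without either of its own arrays (0.0791 and 0.0579).

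Dnajb1, the HSP40 that serves HSP70, was lower with anti-CD40 and Pam2CSK4 when the slide was a block. Its log2 signal was 5.83 and 5.83 in unstimulated cells, 5.76 and 5.51 with Pam2CSK4, 5.72 and 5.55 with anti-CD86, 5.68 and 5.37 with anti-CD86 and Pam2CSK4, 5.75 and 5.38 with anti-CD40, and 5.56 and 5.55 with anti-CD40 and Pam2CSK4. The 2 arrays of anti-CD40 and Pam2CSK4 and the 2 unstimulated arrays share slide 1, so this change, -0.28, is the same with and without the block. Its SE was 0.17 without the slide term (adjusted p = 0.292) and 0.06 with it (0.00937), and in slide 1 alone the adjusted p was 0.0258. The blocked call held with each array left out in turn (0.039 to 0.0491). The second probe, P171663, gave -0.15 ± 0.07 (SE, adjusted p = 0.127) for the same comparison. It fell by 0.25 ± 0.07 (SE, adjusted p = 0.0362) with anti-CD40 with the block, where the reported probe gave -0.13 ± 0.06 (SE, adjusted p = 0.173). The probes differed in sign with anti-CD86, at 0.07 for P171663 and -0.06 for the reported probe, and with anti-CD86 and Pam2CSK4, at 0.09 and -0.17. Against anti-CD86 and Pam2CSK4, the combination with anti-CD40 gave -0.23 ± 0.07 (SE, adjusted p = 0.0461) for P171663 and -0.11 ± 0.06 (SE, adjusted p = 0.228) for the reported probe with the block.

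Hsf1, the regulator, was lower with anti-CD40 when the slide was a block. Its log2 signal was 3.43 and 3.45 in unstimulated cells, 3.43 and 3.01 with Pam2CSK4, 3.40 and 3.08 with anti-CD86, 3.50 and 3.05 with anti-CD86 and Pam2CSK4, 3.17 and 2.74 with anti-CD40, and 3.33 and 3.43 with anti-CD40 and Pam2CSK4. Both anti-CD40 arrays lay below both unstimulated arrays, and the change was -0.48 ± 0.22 (SE, adjusted p = 0.172) without the slide term and -0.28 ± 0.06 (SE, adjusted p = 0.0136) with the block. The second probe gave -0.31 ± 0.09 (SE, adjusted p = 0.0339) with the block. The call of the reported probe was lost without anti-CD40 replicate 1 (0.0564) or either unstimulated array (0.0532 and 0.0687). In the other 4 stimulations the blocked change lay between -0.06 and 0.04 for the reported probe. For the second it was 0.03 with anti-CD40 and Pam2CSK4 and 0.05 with Pam2CSK4, where the reported probe gave -0.06 and -0.02. The log2 signal of the second probe with anti-CD86 and Pam2CSK4 was 0.18 and 0.03, above both unstimulated arrays at -0.10 and -0.01. Both Hsf1 probes have the same sign as Hspa1a, Hsph1 and Hspe1 with anti-CD40, and the opposite sign to Hsp90ab1 and Hspd1.

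The wider chaperone machinery was followed in 8 lists of other genes. Without the slide term 8.46% of all genes rose and 10.0% fell with anti-CD40 and Pam2CSK4, and 3.46% rose and 7.71% fell with anti-CD86 and Pam2CSK4. With the block these shares were 21.1%, 24.5%, 14.7% and 21.5%. The counts of each list are to be read against them, and the values of its genes were not refitted without single arrays.

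Of 14 tested subunits of the cytosolic chaperonin TRiC and of prefoldin, which hands it actin and tubulin, 3 rose and 0 fell with anti-CD40 and Pam2CSK4 without the block. They were Cct3 at 1.04 ± 0.18 (SE, adjusted p = 0.00658), Pfdn4 at 0.85 ± 0.14 (SE, adjusted p = 0.00542) and Cct5 at 0.60 ± 0.13 (SE, adjusted p = 0.0182). The median of the 14 was 0.34, where that of all genes was -0.01, and with the block 8 rose and 1 fell. With anti-CD40 alone 3 also rose and 0 fell without the block, at a median of 0.10 where all genes were at 0.00, and 6.42% of all genes rose and 11.2% fell. With anti-CD86 and Pam2CSK4 1 of the 14 fell, Cct6a at -0.65 ± 0.13 (SE, adjusted p = 0.0241), at a median of -0.17 where all genes were at -0.02, and 2 rose and 4 fell with the block.

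Of 9 tested chaperones of the endoplasmic reticulum, 3 fell with anti-CD86 and Pam2CSK4 without the block, at a median of -0.42. They were Dnajc10, a disulfide reductase, at -0.75 ± 0.14 (SE, adjusted p = 0.0213), Hsp90b1, the HSP90 of that compartment, at -0.68 ± 0.16 (SE, adjusted p = 0.0358), and Canx (calnexin), a chaperone of glycoproteins, at -0.55 ± 0.14 (SE, adjusted p = 0.0496). With anti-CD40 and Pam2CSK4 0 of the 9 passed by limma without the block, at a median of -0.17, and 2 rose and 4 fell with it. Without the block 1 had an unadjusted p under 0.05, against 33.9% of all probes.

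Of 14 HSP70 relatives and exchange factors, Hspa2, an HSP70 best known from the testis, rose by 1.66 ± 0.14 (SE, adjusted p = 0.000363) and Bag5 by 0.67 ± 0.19 (SE, adjusted p = 0.0493) with anti-CD40 and Pam2CSK4, at a median of 0.03. With anti-CD86 and Pam2CSK4 Hspa4l, an HSP110, fell by 0.77 ± 0.19 (SE, adjusted p = 0.0396), at a median of -0.23. With the block 5 rose and 3 fell with the former and 1 rose and 3 fell with the latter. Of 16 HSP90 cochaperones, Cdc37, which brings kinases to HSP90, rose by 0.73 ± 0.20 (SE, adjusted p = 0.0386) with anti-CD40 and Pam2CSK4, at a median of 0.11, and Fkbp5, a partner of steroid receptors, fell by 0.79 ± 0.15 (SE, adjusted p = 0.0234) with anti-CD86 and Pam2CSK4, at a median of -0.22. With the block 5 rose and 4 fell with the former, and 3 rose and 6 fell with the latter.

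Of 15 cytosolic J-domain proteins, 3 fell with anti-CD40 and Pam2CSK4 without the block. They were Dnajc7 at -1.49 ± 0.13 (SE, adjusted p = 0.000363), Dnajc9 at -1.03 ± 0.17 (SE, adjusted p = 0.00588) and Dnajb2 at -0.54 ± 0.15 (SE, adjusted p = 0.0439), and the median was 0.07. Dnajb4 fell by 0.49 ± 0.11 (SE, adjusted p = 0.0357) with anti-CD86 and Pam2CSK4, at a median of -0.28. With the block 3 rose and 3 fell with the former and 1 rose and 6 fell with the latter.

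Of 10 mitochondrial chaperones and proteases other than Hspd1 and Hspe1, 0 passed by limma without the block in either combination. At an unadjusted p under 0.05 there was 1 with anti-CD40 and Pam2CSK4, against 33.9% of all probes. With anti-CD86 and Pam2CSK4 there were 4, against 30.4%. With the block 4 rose and 1 fell with anti-CD40 and Pam2CSK4, among them Hspa9, the mitochondrial HSP70, which rose by 0.52 ± 0.08 (SE, adjusted p = 0.00226), and Grpel1, its exchange factor, which rose by 0.40 ± 0.10 (SE, adjusted p = 0.0176). In the combination with anti-CD86 0 rose and 4 fell, among them Dnajc19, a part of the import motor, which fell by 0.44 ± 0.09 (SE, adjusted p = 0.0126), and Clpx, of the matrix protease, which fell by 0.38 ± 0.07 (SE, adjusted p = 0.0067). The median of the 10 without the block was 0.10 and -0.28. Of 9 small heat shock proteins 4 passed the filter on dim probes, and of 6 heat shock factors and HSF1 partners 2 did. Without the block limma called 1 of these 6 tested genes in the 2 combinations, Hsf5, which rose by 0.59 ± 0.15 (SE, adjusted p = 0.0322) with anti-CD40 and Pam2CSK4.

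Over the 12 arrays, the genes whose signal ran most like that of Hspd1, the member with the widest range, were Ranbp2 (Pearson r = 0.994), Ptpn11 (0.991), Csnk2a2 (0.991), Mterfd1 (0.987) and Sec22a (0.984), among 24189 genes. Those most like Hsf1 were the locus named LOC100047222 (0.991), Apba3 (0.978), Prrc1 (0.977), Rnf114 (0.977) and Trmt1 (0.974). All 12 points share the slide shift that lowers both members, so the lists are a description only.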

How the data were processed

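RNA of 12 RB cell samples was hybridised to 1-colour (Cy3) Agilent arrays annotated to mm9. Per the file headers, the authors' scanner software deposited a background-subtracted, detrended intensity for each spot, not normalized between arrays. The log2 values that the authors deposited as 1 table equalled those used here but for 1 constant per array, and were used only for that check. The mean and background intensity columns deposited beside it served an alternative.

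Intensities were taken as log2 and scaled by subtracting each array's 75th percentile over the non-control spots. Each array lost between 5 and 35 outlier spots, and repeated spots of a probe were averaged. The filter on dim probes asked for signal well above background in both replicates of some condition, which 31666 of 61307 probes met, and the 31596 of these without a missing value were tested. Spots well above background made up 46.6% to 60.6% of an array, and 987 to 1206 spots were saturated. The number of arrays, 2 per condition, limits the precision. Linear models over the 6 conditions were fitted with limma 3.58.1 in R 4.3.3 (lmFit and eBayes, 6 residual degrees of freedom, prior 2.07), with Benjamini-Hochberg adjustment over all 31596 probes and a threshold of 0.05. In the block the slide was a fixed term. An interaction is the change with both agents minus the sum of the changes with each. The scripts were tested on simulated data.

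Members, lists of other chaperones and markers were chosen with earlier results of these data known. Of the B cell markers, 1 is not reported here. The member genes named are all 10. Differences in call or sign between probes of a member are given, though not for every comparison. List genes are named from those called with either combination of agents, the 2 highest and 2 lowest changes of a list, and each is given by its brightest unsaturated probe tested. A gene most like a member is one with the highest Pearson correlation of log2 signal over the 12 arrays. Alternatives covered scaling by the median or by quantiles, normexp background correction, no filter and a stricter one, slide and replicate blocks, trended robust moderation, fits of the compared conditions only, each array left out in turn and the methods' one way test. The fits on slide 1 and the slide block with other scalings or with an array left out were added after the data were seen. Where an array left out leaves 1 in a condition, that array is assumed to vary like the others. Motifs were searched in RefSeq promoter sequences of GRCm38.p6 with Python 3.11.15.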

Additional observations from a re-analysis of the deposited data

How the results depend on the processing

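Counts are of the 8 members called by limma, 0 without the slide term except 1 for anti-CD40 and Pam2CSK4 against anti-CD86 and Pam2CSK4. In the conditions split over the slides the replicate number is also the slide, so pairing by number could not be told there. The difference between replicates 1 and 2 correlated at 0.54 to 0.67 among these conditions. That of the unstimulated and of the anti-CD40 and Pam2CSK4 arrays correlated with none (-0.11 to 0.07). Between the unstimulated and the anti-CD40 and Pam2CSK4 arrays, which lie on slide 1 alone, the correlation was 0.07. With anti-CD86 the count was 2 with the slide block, 1 with the replicate block, 4 with slide block and quantile and 2 with slide block and normexp. With anti-CD86 and Pam2CSK4 these were 4, 3, 4 and 4, with 1 under normexp, trended moderation and slide 1 arrays each. With anti-CD40 they were 6, 2, 5 and 5, with 2 under quantile, normexp, the stricter filter and trended moderation each, 1 in slide 1 arrays, and 0 to 2 with an array left out. With anti-CD40 and Pam2CSK4 the slide block gave 3, with quantile 5 and with normexp 3, the fit of the compared conditions 2 and slide 1 arrays 2. Against Pam2CSK4, anti-CD86 and Pam2CSK4 gave 1 with the slide block and 1 with normexp added, and anti-CD40 and Pam2CSK4 gave 4 with the slide block, 4 with quantile or normexp added, 2 with the replicate block and 1 with quantile. Against anti-CD40 the combination gave 3 with the slide block, 2 with quantile or normexp added, 1 with quantile, the replicate block or trended moderation, and 0 to 1 with an array left out. The anti-CD40 interaction gave 1 with either block, quantile, or the slide block with quantile or normexp, and 0 to 1 with an array left out. Anti-CD40 and Pam2CSK4 against anti-CD86 and Pam2CSK4 gave 3 with either block or the slide block with normexp, 4 with slide block and quantile, 2 with trended moderation or slide 1 arrays, and 0 with median scaling, median scaling and slide block, no filter, the compared conditions only, or any array left out. The F test gave 7 with the slide block, also with quantile or normexp added, 3 with the replicate block or slide 1 arrays, 1 with quantile, normexp, the stricter filter, trended moderation or the methods' one way test, and 0 to 1 with an array left out.

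Reversed values were those of Hspd1 with anti-CD40, -0.53 with median scaling, -0.11 with median scaling and slide block and -0.16 to 0.24 with an array left out, and of Hsp90ab1 with anti-CD40, -0.35 with median scaling. The cause was not tested. Of 365 alternative values for 19 changes, 271 kept direction and call, 82 gained and 8 lost the call, and 4 reversed. Over all probes the calls with anti-CD40 numbered 5280, 11728 with the slide block and 349 with median scaling. Saturation limits Hsp90aa1.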

Other observations

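Loci whose array names mark them as near-copies of the members were chosen after their values were seen, and their probes could take up RNA of the parent gene. Gm5511, a near-copy of Hsp90aa1, was above background on all 12 arrays and changed by -0.51 ± 0.12 (SE, adjusted p = 0.0384 by limma) with anti-CD86 and Pam2CSK4, and by -0.57 ± 0.08 (SE, adjusted p = 0.0033) once the slide was a block. With anti-CD40 and Pam2CSK4 it changed by -0.28 ± 0.12 (SE, adjusted p = 0.146), and the adjusted p with the block was 0.0225. EG621431, another near-copy of Hsp90aa1, changed by 0.35 ± 0.12 (SE, adjusted p = 0.0806) with anti-CD40 and Pam2CSK4, and the adjusted p with the block was 0.0208, so with the block these 2 near-copies moved in opposite directions. These values do not stand in for Hsp90aa1, whose own probe was saturated.

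The near-copy of Hspe1 named ENSMUST00000101240 changed by 0.26 ± 0.08 (SE, adjusted p = 0.0397) with anti-CD40 and Pam2CSK4 with the block, and the Hspa8 near-copy Gm7899 by 0.28 ± 0.07 (SE, adjusted p = 0.022). LOC384039, a near-copy of Hspd1, had blocked changes of 0.71 ± 0.37 (SE, adjusted p = 0.179) with anti-CD40 and -0.46 ± 0.34 (SE, adjusted p = 0.321) with anti-CD40 and Pam2CSK4. Neither passed.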
